A study of Mus musculus with 4 samples.

Results

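The genes described here are 9 interferon-stimulated genes, Ifit1, Ifit3, Isg15, Irf7, Ifitm3, Oasl2, Rtp4, Bst2 and Ifi27l2a, found by their symbols among the 31053 genes counted in every library. They were chosen on measured values of these same libraries, in which several cell classes had their highest levels in the sham sample, so the differences from sham below are a description and none was tested. Single-cell RNA-seq (10x Genomics) was performed on the hemisphere on the operated side of the brain of male C57/BL6 mice aged 8 weeks. There were 4 libraries, 1 per group: day 1, day 3 and day 7 after tMCAO (transient middle cerebral artery occlusion, in which a filament blocks the artery and is then withdrawn) and a sham operation without the occlusion, which the series places at day 7. Brains were perfused with buffer, digested with papain and cleared of myelin on Percoll, which all groups share. How many mice entered a library is not stated in the sources used here, and there were no replicate libraries. The 95% intervals given below therefore cover counting error only and say nothing of the spread between animals, and the 3 comparisons with sham all use the same sham library.

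Interferons are secreted proteins that warn cells of viral or other foreign nucleic acids. Type I interferons bind the Ifnar1 and Ifnar2 receptor, the kinases Jak1 and Tyk2 are activated, and a complex that contains Stat2 and Irf9 enters the nucleus and binds the interferon-stimulated response element of target genes. Interferon gamma, from T and NK cells, signals through Ifngr1 and Ifngr2 to the gamma-activated site of its targets. Endothelial cells and microglia of the brain respond to both.

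The genes fall into effectors, a regulator and membrane proteins, and their positions are given on GRCm38 with the GENCODE vM21 annotation. Ifit1 (ENSMUSG00000034459, chr19:34640871-34650009, forward strand) and Ifit3 (ENSMUSG00000074896, chr19:34583531-34588731, forward) are neighbouring genes of antiviral proteins, Ifit1 a binder of foreign RNA and Ifit3 a partner of other Ifit proteins. Isg15 (ENSMUSG00000035692, chr4:156199424-156200818, reverse) encodes a ubiquitin-like protein that is joined to other proteins, and Oasl2 (ENSMUSG00000029561, chr5:114896936-114912234, forward) a protein of the oligoadenylate synthetase family. Irf7 (ENSMUSG00000025498, chr7:141262706-141266481, reverse) is the transcription factor that amplifies type I interferon production. Ifitm3 (ENSMUSG00000025492, chr7:141009586-141010770, reverse) blocks fusion of viruses in endosomes, and Bst2 (ENSMUSG00000046718, chr8:71534255-71537456, reverse), also called tetherin, holds budding virions at the cell surface. Rtp4 (ENSMUSG00000033355, chr16:23520291-23614222, forward) is a chaperone of G protein-coupled receptors that is also induced by interferon. Ifi27l2a (ENSMUSG00000079017, chr12:103442167-103443680, reverse) encodes a small hydrophobic protein. All 9 are protein-coding, and per the labels reads came from the 3′ end of transcripts. Of the 90-base stretches of Ifit3 transcripts, 35.1% also occur in Ifit3b, and of those of Ifit1 4.05% occur in Ifit1bl2, so reads could be split or lost between these copies. Rtp4 overlaps Gm45338 on the same strand in exons (9.75% of its stretches), and Irf7 overlaps Phrf1 on the opposite strand in an exonic block.

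RefSeq promoter windows (GRCm38.p6, 250 bases before to 50 after the transcription start) matched 7 of the 9 genes, and Rtp4 and Ifi27l2a had none. The interferon-stimulated response element core was searched as GAAANNGAA and the gamma-activated site as TTCNNNGAA, on both strands and with overlaps counted. The core occurred in 5 of the 7 windows, those of Ifit1, Ifit3, Isg15, Ifitm3 and Bst2, and in 8.56% of all 32851 windows. The gamma-activated site occurred in 2 of the 7 windows, those of Ifitm3 and Bst2, and in 8.30% of all windows. In the windows of Irf7 and Oasl2 neither run of letters was found. The sequences below show these 5 matches, with the bases of each core match in capitals, because the pathway reads this element. Each is printed 5′ to 3′ on the strand of its gene. The stretches cover the 180 bases before the RefSeq start of Ifit1 (chr19:34640709-34640888), Ifit3 (chr19:34583349-34583528), Isg15 (chr4:156200819-156200998, reverse strand) and Bst2 (chr8:71537473-71537652, reverse strand), and the 30 bases from the RefSeq start of Ifitm3 (chr7:141010715-141010744, reverse strand). For Ifit1, Ifit3, Bst2 and Ifitm3 this start differs from the GENCODE start of the gene given above.
Ifit1: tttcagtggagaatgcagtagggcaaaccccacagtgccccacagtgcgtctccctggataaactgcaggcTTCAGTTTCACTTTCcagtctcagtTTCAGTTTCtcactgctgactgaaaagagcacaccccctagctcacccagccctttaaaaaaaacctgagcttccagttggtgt
Ifit3: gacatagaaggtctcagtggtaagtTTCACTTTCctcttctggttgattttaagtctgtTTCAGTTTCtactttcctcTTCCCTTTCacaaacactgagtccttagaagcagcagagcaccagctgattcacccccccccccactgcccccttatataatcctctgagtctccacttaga
Isg15: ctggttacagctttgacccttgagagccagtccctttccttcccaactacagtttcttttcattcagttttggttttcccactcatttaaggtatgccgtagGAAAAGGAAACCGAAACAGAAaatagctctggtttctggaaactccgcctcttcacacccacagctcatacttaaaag
Bst2: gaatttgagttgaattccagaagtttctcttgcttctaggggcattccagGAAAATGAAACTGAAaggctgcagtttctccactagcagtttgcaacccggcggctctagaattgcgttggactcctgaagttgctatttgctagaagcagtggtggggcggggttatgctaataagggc
Ifitm3: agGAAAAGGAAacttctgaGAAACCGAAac
In Ifit1 and Ifit3 the capitals read as the reverse complement of the core, since all 3 matches of each lie on the opposite strand, and in Isg15, Bst2 and Ifitm3 they lie on the strand of the gene. Matches began 109, 103 and 84 bases before the start in Ifit1, 155, 121 and 102 bases before it in Ifit3, and 78, 72 and 66 bases before it in Isg15, where the 3 overlap. In Bst2 the 2 core matches overlapped, beginning 130 and 124 bases before the start, and a gamma-activated site began 136 bases before it, across the first of them. In Ifitm3 the core began at bases 3 and 20 from the RefSeq start, with a gamma-activated site from base 14 that overlaps the second. These are matches of letters only.

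Per library there were 11744 barcodes for sham and 17780, 11983 and 17922 for days 1, 3 and 7, with 69392755 to 104023002 UMIs each, and 44360 of 59429 cells passed the filter. A cell class was assigned by its marker genes to 39567 of the kept cells (89.2%), and classes are called by the type their markers point to, with "-like". Own markers made 2 to 8 of the top 10 genes of every class. From 5.78% to 7.48% of the classed cells lay next to the limit of the marker rule, and more did in some classes, such as 52 of 235 pericyte-like and 171 of 623 smooth muscle-like cells in sham and 131 of 592 pericyte-like and 65 of 98 fibroblast-like cells on day 1. Of 59070 distinct barcodes 356 occurred in more than 1 library. Levels are in CPM, the UMIs of a gene per 1000000 UMIs of the class in that library. A gene was counted against sham where either library reached 50 CPM and each held at least 50 cells of the class, and at least 2-fold lower or higher was the size counted. Levels of different genes are not compared. In these samples a smaller share of responding cells and fewer transcripts per cell both lower the CPM of a class, and the shares of cells with a UMI given further on do not tell them apart.

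Endothelial-like cells, which line the vessels, were the class with the most cells, 25850 of the 39567 (4753 in sham, 6592 on day 1, 5550 on day 3 and 8955 on day 7), and all 9 genes exceeded the limit there. Their levels were highest in sham for 8 of the 9 and lowest on day 1 for 8 of the 9, the exception being Ifitm3, which was highest on day 3 and lowest on day 7. The levels rest on 597 UMIs (Ifi27l2a, day 1) to 77647 UMIs (Ifitm3, day 3).

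Ifit1 stood in endothelial-like cells at 693 CPM in sham, 96.1 CPM on day 1, 211 CPM on day 3 and 201 CPM on day 7. Set against sham, the 3 days gave ratios of 0.139 (95% interval 0.131 to 0.146), 0.304 (0.293 to 0.316) and 0.291 (0.281 to 0.301). The day 3 and day 7 levels were close, with a ratio of day 7 to day 3 of 0.956 whose interval ran from 0.914 to just under 1. Ifit3 followed the same order, with 764 CPM in sham, 82.4 CPM on day 1, 218 CPM on day 3 and 168 CPM on day 7. Its day 1 level was 9.28-fold below sham (ratio 0.108, 0.102 to 0.114), and the ratios on days 3 and 7 were 0.285 (0.274 to 0.296) and 0.220 (0.212 to 0.228). Oasl2 stood at 316 CPM in sham, 60.3 CPM on day 1, 145 CPM on day 3 and 128 CPM on day 7. Its ratios of 0.191 (0.178 to 0.204), 0.459 (0.437 to 0.482) and 0.405 (0.387 to 0.424) kept it below sham on each day.

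For Isg15, the ubiquitin-like modifier, endothelial-like cells had 1938 CPM in sham, 273 CPM on day 1, 572 CPM on day 3 and 336 CPM on day 7. The ratios to sham were 0.141 (0.136 to 0.145), 0.295 (0.288 to 0.302) and 0.173 (0.169 to 0.178). Isg15 was thus 7.10-fold lower on day 1 and 5.77-fold lower on day 7. Irf7, the transcription factor, stood at 959 CPM in sham, 126 CPM on day 1, 334 CPM on day 3 and 225 CPM on day 7. It was 7.60-fold lower on day 1 (ratio 0.132, 0.126 to 0.138), 2.87-fold lower on day 3 (0.348, 0.337 to 0.359) and 4.27-fold lower on day 7 (0.234, 0.227 to 0.242).

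The 2 membrane proteins kept more of their sham level than the genes above on days 1 and 3, but not on day 7, when Oasl2 had the higher ratio. Ifitm3 stood in endothelial-like cells at 4618 CPM in sham, 2481 CPM on day 1, 4913 CPM on day 3 and 1699 CPM on day 7. It was the 1 gene of the 9 whose day 3 level was not below sham, with a ratio of 1.06 (1.05 to 1.07), against 0.537 (0.531 to 0.544) on day 1 and 0.368 (0.363 to 0.373) on day 7. Within the endothelial-like clusters described further on, however, Ifitm3 was below sham on day 3 in 6 of 8. Its ratios there ran from 0.619 to 1.20, with a median of 0.876. Bst2 stood at 1182 CPM in sham, 366 CPM on day 1, 737 CPM on day 3 and 412 CPM on day 7. Its ratios were 0.310 (0.301 to 0.319), 0.624 (0.609 to 0.638) and 0.348 (0.340 to 0.357), so that sham was highest and days 1 and 7 lowest. Rtp4, the receptor chaperone, behaved like Bst2, with 313, 78.9, 181 and 102 CPM in sham and on days 1, 3 and 7, and ratios of 0.252 (0.237 to 0.268), 0.578 (0.551 to 0.605) and 0.326 (0.310 to 0.342). Ifi27l2a stood at 270 CPM in sham, 36.5 CPM on day 1, 116 CPM on day 3 and 64.4 CPM on day 7. Its day 1 level was 7.38-fold below sham (0.135, 0.124 to 0.148), and its ratios on days 3 and 7 were 0.428 (0.405 to 0.453) and 0.239 (0.225 to 0.253).

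**Figure D1:**
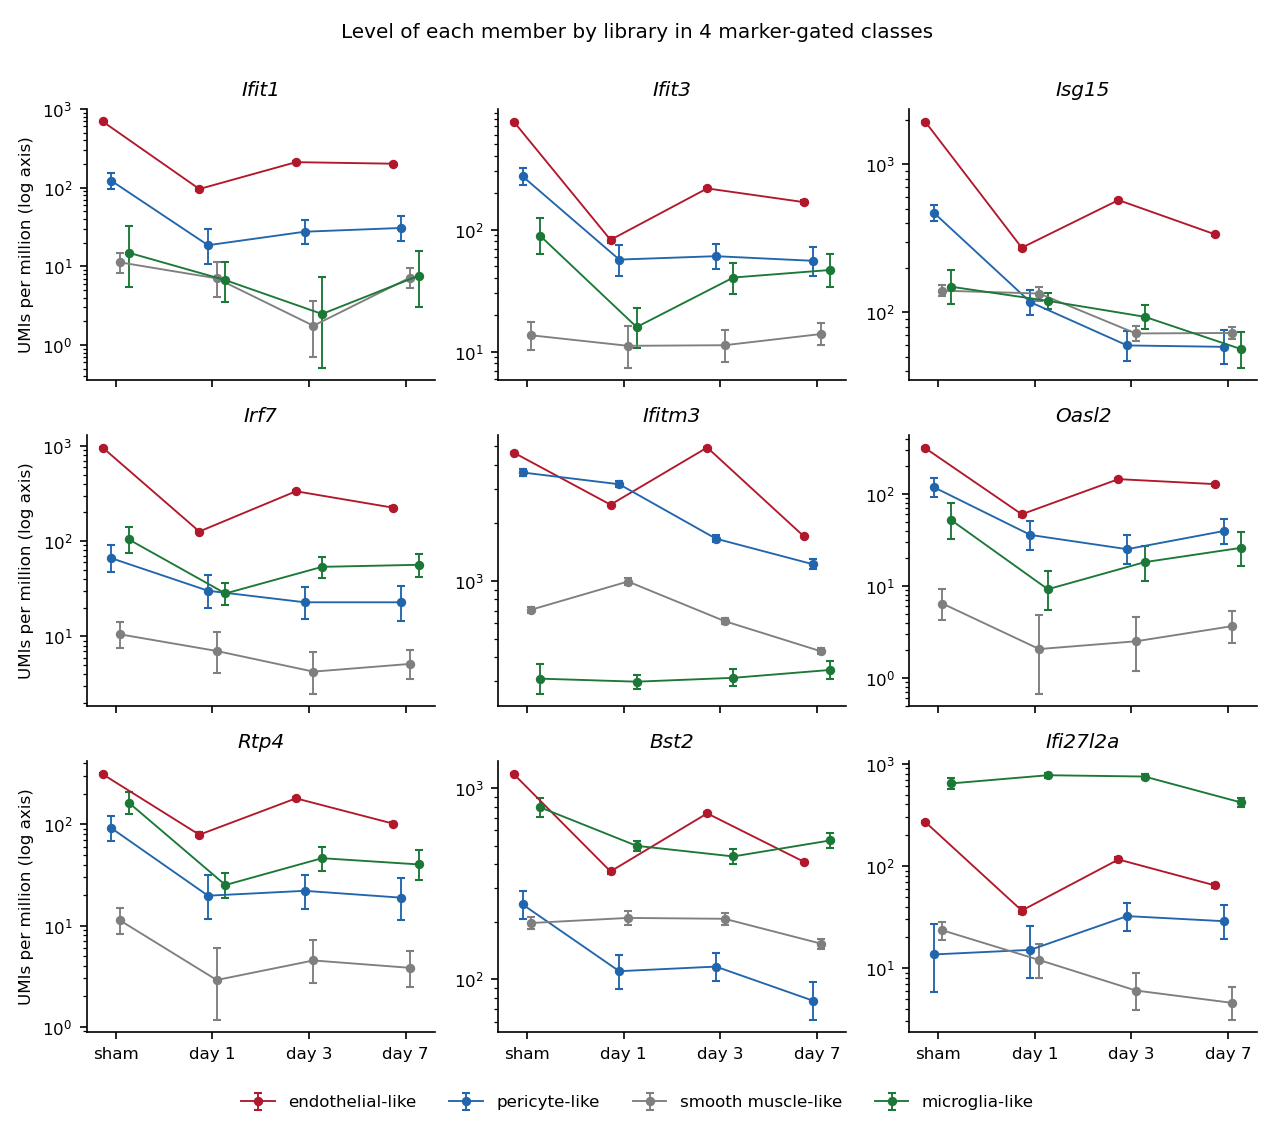
Level of each of the 9 genes (CPM, log axis) in sham and on days 1, 3 and 7 in endothelial-like, pericyte-like, smooth muscle-like and microglia-like cells, 1 library per point with exact 95% Poisson intervals. In endothelial-like cells Isg15 goes from 1938 CPM in sham to 273 CPM on day 1, 572 CPM on day 3 and 336 CPM on day 7, while Ifitm3 returns to 4913 CPM on day 3.

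In counts of genes at least 2-fold below sham, endothelial-like cells had 8 of 9 on day 1, against 3.46% of all genes above the limit, 6 of 9 on day 3, against 1.34%, and 9 of 9 on day 7, against 1.05%. Ifi27l2a passed the limit on day 1 through sham alone, so its low day 1 level is part of how it was kept. None of the 9 was at least 2-fold above sham on any day. Because the genes were chosen for this pattern, the counts describe it and nothing is read from them beside the shares of all genes. The median log2 ratio of the 9 genes was -2.83, -1.22 and -1.78 on days 1, 3 and 7, and that of all genes above the limit -0.07, -0.01 and 0.05. Between the days themselves, all 9 genes were higher on day 3 than on day 1, with ratios from 1.98 to 3.16, and all 9 were lower on day 7 than on day 3, with ratios from 0.346 to 0.956. The summed level of the 9 genes was 11054 CPM in sham, 3600 CPM on day 1, 7426 CPM on day 3 and 3335 CPM on day 7, of which Ifitm3 gave 4618 CPM in sham and 4913 CPM on day 3. The sham cells also held more UMIs of Gm42418, a transcript that collects ribosomal RNA reads (13837 CPM in sham, 1637, 2503 and 6161 CPM on days 1, 3 and 7), and with mitochondrial, ribosomal protein and Gm42418 UMIs taken out of the totals the summed ratios were 0.338, 0.664 and 0.297, beside 0.326, 0.672 and 0.302. Immediate-early genes, which also respond to cell isolation, summed to 12307, 11466, 9555 and 15212 CPM in sham and on days 1, 3 and 7, and their part in the result was not tested.

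**Figure D2:**
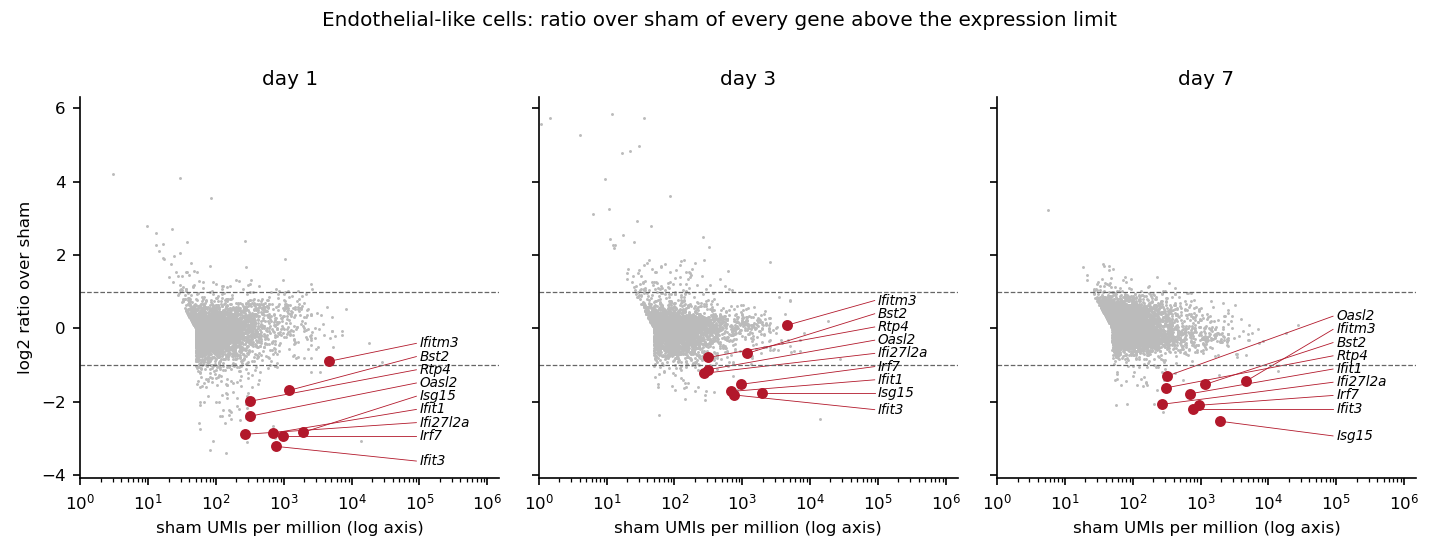
Log2 ratio of each day to sham in endothelial-like cells against the sham level (CPM, log axis) for every gene above the expression limit with a UMI in all 4 libraries, with the 9 interferon-stimulated genes in red and dashed lines at 2-fold. On day 1 Ifit3 (ratio 0.108) lies among the lowest points and Ifitm3 (0.537) stays inside the line, and on day 7 all 9 lie below it.

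Pericyte-like cells, the mural cells wrapped around capillaries (235, 592, 596 and 503 cells in sham and on days 1, 3 and 7), had a summed level of the 9 genes that was lower on day 3 than on day 1, at a ratio of 0.566 (0.537 to 0.596), against 2.06 (2.04 to 2.08) in endothelial-like cells. Most of the pericyte-like sum was Ifitm3, with 3167 of 3570 CPM on day 1 and 1653 of 2019 CPM on day 3. Of the 9 genes 5 were above and 4 below their day 1 level on day 3. Isg15 stood there at 470 CPM in sham (277 UMIs), 117 CPM on day 1, 59.8 CPM on day 3 and 58.5 CPM on day 7 (59 UMIs). The ratios were 0.249 (0.196 to 0.314), 0.127 (0.0973 to 0.164) and 0.124 (0.0923 to 0.165), and days 3 and 7 had overlapping intervals. Ifitm3 stood at 3645 CPM in sham, 3167 CPM on day 1, 1653 CPM on day 3 and 1219 CPM on day 7, so it was close to sham on day 1 (0.869, 0.821 to 0.920) and 2.21-fold and 2.99-fold lower on days 3 and 7. The endothelial-like day 3 level of Ifitm3 thus had no counterpart here, the pericyte-like ratio of day 3 to sham being 0.453 (0.427 to 0.482). Ifit3 stood at 273, 56.8, 60.6 and 55.5 CPM in sham and on days 1, 3 and 7, and Ifit1 at 122, 18.6, 27.5 and 30.7 CPM. For both genes the 3 days did not differ from each other beyond counting error. Bst2 stood at 246, 110, 116 and 77.3 CPM, Oasl2 at 119, 35.9, 25.2 and 39.7 CPM, Rtp4 at 91.7, 19.7, 22.0 and 18.8 CPM and Irf7 at 66.2, 30.1, 22.8 and 22.8 CPM. In all of these sham was highest. Ifit1, Oasl2, Rtp4 and Irf7 reached 50 CPM in sham alone, so a low day level is part of how they were kept. Ifi27l2a was under the limit in every library (13.6, 15.1, 32.3 and 28.8 CPM, from 8 to 41 UMIs), with day 3 at 2.37 and day 7 at 2.12 times sham, and at 0.495 and 0.522 times with classes taken from clusters.

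Of the 8 genes above the limit in pericyte-like cells, 7 were at least 2-fold below sham on day 1, against 2.91% of all genes, 8 on day 3, against 1.48%, and 8 on day 7, against 1.39%. With a limit of 200 CPM the counts were 3, 4 and 4. The summed level of the immediate-early genes in these cells was also below sham, with 7937, 4172, 2563 and 5068 CPM in sham and on days 1, 3 and 7. At least 2-fold lower were 4 of 9, 6 of 8 and 1 of 8 of them on the 3 days. At least 2-fold higher were Nr4a1 on day 1 and Egr1 on day 7, against 3.27% and 4.22% of all genes. The part of the immediate-early genes in the result was not tested. Since RNA from other cells can enter a droplet, each level was set beside the one that pericyte-like cells would have if they held the gene in the same proportion to endothelial markers as endothelial-like cells do. Endothelial markers in pericyte-like cells were at 3.78% to 5.00% of their endothelial-like level, and 7, 9, 5 and 8 of the 9 genes exceeded 3 times the corresponding level in sham and on days 1, 3 and 7. In sham Irf7 was at 1.83 and Ifi27l2a at 1.33 times, on day 3 Irf7 was at 1.37, Isg15 at 2.09, Rtp4 at 2.44 and Ifit1 at 2.61 times, and on day 7 Irf7 was at 2.50 times, and the part of endothelial RNA in these levels was not tested. Ifitm3 was at 6.73 to 30.7 times in the 4 libraries.

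Microglia-like cells, the resident macrophages of the brain (127, 454, 354 and 249 cells), had a different order of days from gene to gene. Rtp4 stood at 164 CPM in sham (66 UMIs), 25.1 CPM on day 1, 46.3 CPM on day 3 and 40.2 CPM on day 7, at ratios of 0.154 (0.104 to 0.226), 0.283 (0.194 to 0.410) and 0.245 (0.159 to 0.372). Ifit3 stood at 89.3, 15.9, 40.5 and 46.7 CPM, Irf7 at 104, 28.2, 53.7 and 56.4 CPM and Oasl2 at 52.1, 9.23, 18.2 and 26.1 CPM. These 4 genes had their highest level in sham and their lowest on day 1. Isg15 was closer to sham on days 1 and 3, with 149, 120, 93.4 and 56.4 CPM in sham and on days 1, 3 and 7 and ratios of 0.803 (0.602 to 1.09), 0.627 (0.455 to 0.873) and 0.379 (0.256 to 0.559), but with classes taken from clusters the ratios on days 1 and 3 were 0.355 and 0.306. Bst2 stood at 794, 499, 439 and 532 CPM, within 2-fold of sham on each day, with day 7 at a ratio of 0.670, or 0.498 with classes taken from clusters. Ifitm3 stood at 310, 299, 313 and 344 CPM, with ratios of 0.964 to 1.11 and intervals that include 1. With classes taken from clusters its ratios were 0.685, 0.858 and 0.624, so no direction is read for it.

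Ifi27l2a differed from the others in microglia-like cells, with 643 CPM in sham, 773 CPM on day 1, 750 CPM on day 3 and 418 CPM on day 7. Its ratios were 1.20 (1.05 to 1.38), 1.17 (1.02 to 1.35) and 0.650 (0.554 to 0.764), so day 7 was the lowest library. The direction on day 1 turned when cells with over 3000 genes were kept, at a ratio of 0.644, and that on day 7 turned when cells were thinned to 1000 UMIs, at 1.02. Ifit1 was under the limit in microglia-like cells (14.9, 6.67, 2.48 and 7.60 CPM, from 3 to 13 UMIs). Of the 8 genes above it, 4 were at least 2-fold below sham on day 1 (Ifit3, Irf7, Oasl2 and Rtp4), against 17.8% of all genes, 3 on day 3 (Ifit3, Oasl2 and Rtp4), against 4.01%, and 3 on day 7 (Isg15, Rtp4 and, at a ratio of just under 0.5, Oasl2), against 3.42%. Ifit3, Oasl2 and Rtp4 reached 50 CPM in sham alone, and Irf7 on day 1 passed through sham as well, so a low day level is part of how they were kept, and with a limit of 200 CPM the counts were 0, 0 and 0. With cells thinned to 1000 UMIs the day 7 ratios of Isg15 and Oasl2 were 0.533 and 0.738, which left 1 gene on that day, and the day 1 ratio of Isg15 was 0.992. The sham cells of this class had the fewest UMIs (median 1832, against 3408.5, 2509.5 and 2999) and the highest immediate-early sum (31797 CPM, against 8618, 19118 and 26147 CPM), and the part of either in the result was not tested.

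In smooth muscle-like cells (623, 606, 696 and 1332 cells), which form the wall of arteries, only Isg15, Ifitm3 and Bst2 exceeded the limit. Isg15 stood at 140 CPM in sham, 134 CPM on day 1, 72.0 CPM on day 3 and 72.6 CPM on day 7. Its ratios were 0.957 (0.833 to 1.10), 0.515 (0.445 to 0.594) and 0.518 (0.459 to 0.585), with an interval that includes 1 on day 1 and lower levels on days 3 and 7. With at most 5% mitochondrial UMIs allowed, the Isg15 ratios were 0.438, 0.198 and 0.283. Ifitm3 stood at 707, 990, 617 and 430 CPM and was above sham on day 1, at a ratio of 1.40 (1.33 to 1.48), but under the same mitochondrial limit that ratio was 0.891, with 0.513 and 0.431 on days 3 and 7. Bst2 stood at 197, 209, 207 and 153 CPM, within counting error of sham on days 1 and 3, but at ratios of 1.71 and 1.61 under that limit. None of these 3 genes was at least 2-fold below sham, against 1.93%, 0.366% and 0.369% of all genes on days 1, 3 and 7. The other 6 genes were at 23.4 CPM or less in every library.

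Ordered by class within each library, among classes with at least 50 cells, endothelial-like cells came first in sham for Ifit1, Ifit3, Isg15, Irf7, Ifitm3, Oasl2, Rtp4 and Bst2. Pericyte-like cells came next for Ifit1, Ifit3, Isg15, Ifitm3 and Oasl2, without overlap of the intervals, and microglia-like cells for Irf7 and Rtp4. For Bst2 the endothelial-like level of 1182 CPM overlapped that of choroid plexus-like cells at 1099 CPM. Ifi27l2a had another order, with choroid plexus-like cells (673 CPM) and microglia-like cells (643 CPM) first and overlapping, ahead of endothelial-like cells. On day 1 oligodendrocyte progenitor-like and fibroblast-like cells also had at least 50 cells, which they had in no other library. Ifit3 was then at 100 CPM in oligodendrocyte progenitor-like cells, 89.9 CPM in fibroblast-like cells and 82.4 CPM in endothelial-like cells, with overlapping intervals. Among the classes ranked in both libraries endothelial-like cells stayed first for Ifit3, ahead of pericyte-like cells at 56.8 CPM. Few progenitor-like cells carried their level, since 140 of 178 thinned cells held none of the 9 genes and 1 cell held 8 of them. Ifitm3 was at 3315 CPM in fibroblast-like and 3167 CPM in pericyte-like cells, above the endothelial-like 2481 CPM, and Bst2 was first in microglia-like cells (499 CPM). On day 3, the 1 library in which neutrophil-like cells reached 50 cells, they were at the head of the order for Isg15 (578 CPM, against 572 CPM in endothelial-like cells, overlapping), Oasl2 (182 against 145 CPM, overlapping) and Rtp4 (387 against 181 CPM, not overlapping), and for Ifi27l2a (2284 CPM, against 750 CPM in microglia-like cells, not overlapping). On day 7 endothelial-like cells were again first for Ifit1, Ifit3, Isg15, Irf7, Ifitm3, Oasl2 and Rtp4.

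Within endothelial-like cells the summed level of the 9 genes was below sham in every cluster large enough to compare. Cells fell into 10 clusters, of which 7 on day 1 and 8 on days 3 and 7 had at least 50 cells both in that library and in sham. The clusters hold different shares of the libraries. Cluster 8 (leading genes Hspa1b, Hspa1a, Ctla2a, Adm and Scgb3a1) was 24.5% of the day 1 cells and 0.863% of the sham cells, and cluster 10 (Scgb3a1, Ankrd37, Ptgfrn, Podxl and Acer2) was 28.0% of the day 3 cells and 0.295% of the sham cells. The summed ratio over clusters ran from 0.204 to 0.341 on day 1, from 0.409 to 0.805 on day 3 and from 0.259 to 0.344 on day 7. On day 7 all 9 genes were at least 2-fold below sham in each of the 8 clusters, against 1.23% to 5.56% of all genes. On day 3 the single genes differed, with all 9 below sham in 5 of the 8 clusters, 8 in clusters 7 and 11 and 6 in cluster 20. In cluster 20 Rtp4 was at a ratio of 1.27, Bst2 was at 1.09 and Ifitm3 was not below sham either. In cluster 7 Ifi27l2a was at 1.09.

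Cluster 11 (Ackr1, Lrg1, Lcn2, Selp and Sele) stood apart on day 3. Ifit3 was there at a ratio of 0.0852 to sham, Isg15 at 0.139, Irf7 at 0.164 and Ifit1 at 0.151, each the lowest of the 8 clusters. Ifitm3 was in the same cells at 7515 CPM on day 3, the highest of the 10 clusters in that library, and at a ratio of 1.20 to sham. In cluster 5 (Gkn3, Cytl1, Egfl8, Fbln5 and Bmx) the day 3 ratios of Ifit1 (0.428), Ifit3 (0.447), Isg15 (0.398) and Irf7 (0.451) were the highest of the 8. Cluster 20 (Plvap, Gpihbp1, Esm1, Rbp7 and Cd300lg) had the highest Bst2 level in sham (2498 CPM) and on day 3 (2712 CPM), with intervals clear of the next cluster, and 877 CPM on day 7. Ifi27l2a was highest in cluster 11 in sham, at 794 CPM, and in cluster 7 (Pi16, Lypd1, Slc26a10, Cdh13 and Gm9946) on day 3, at 395 CPM. The clusters were made from the same counts, so these differences between them are a description.

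**Figure D3:**
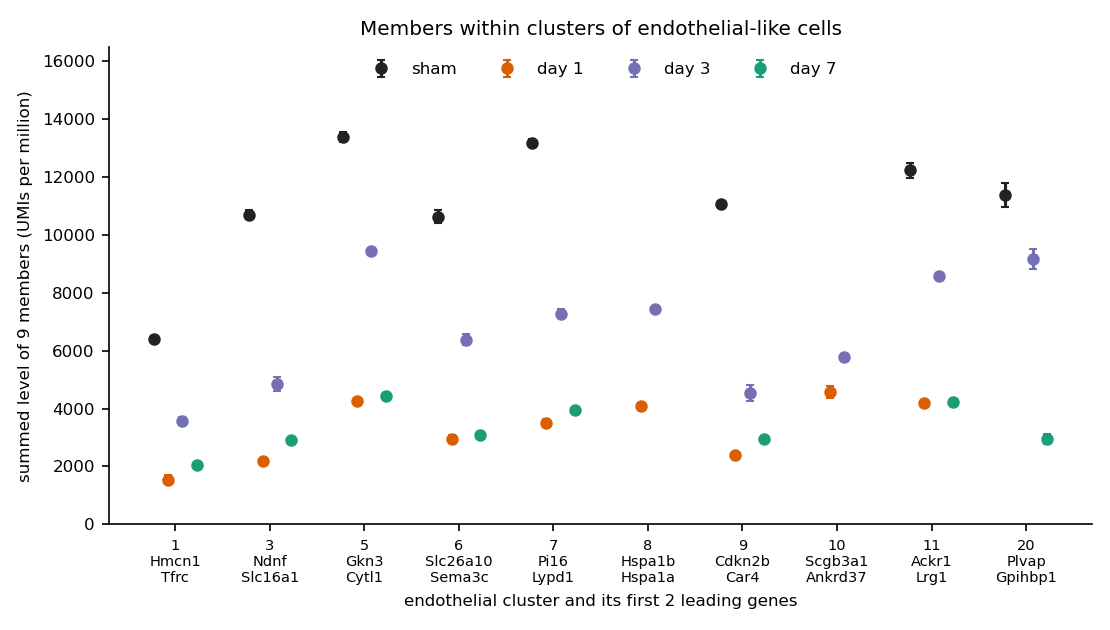
Summed level of the 9 genes (CPM) in each endothelial-like cluster by library, for clusters with at least 50 cells in the library, with exact 95% Poisson intervals. Every day 1 or day 7 point of a cluster lies below its sham point, as for cluster 5 with 13396 CPM in sham, 4273 CPM on day 1 and 4451 CPM on day 7.

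The lower levels came with fewer cells in which a UMI was found. Wherever cells were thinned to 1000 UMIs, those with fewer were left out. In endothelial-like cells this kept 4131 of 4753 in sham and 5013 of 6592 on day 1. On days 3 and 7 it kept 4862 of 5550 and 7394 of 8955. After thinning, Isg15 was found in 70.7% of the kept endothelial-like cells in sham (exact binomial interval 69.3 to 72.1), 17.6% on day 1 (16.6 to 18.7), 33.1% on day 3 (31.8 to 34.4) and 22.1% on day 7 (21.1 to 23.0). Without thinning the shares were 79.7%, 28.1%, 48.7% and 35.7% at median depths of 2825, 1820, 2187 and 1970 UMIs. In oligodendrocyte-like cells, which served as the class with little Isg15, thinned shares were 0.817%, 0.189%, 0.126% and 0.276% at median depths of 7916, 4831, 6718 and 6401 UMIs. All 4 endothelial-like shares were above these, but the class was picked for its low Isg15, so the comparison is a description. Ifit3 was found in 43.7% of thinned endothelial-like cells in sham, 6.66% on day 1, 15.5% on day 3 and 12.6% on day 7 (64.3%, 12.8%, 28.4% and 22.7% without thinning), against 0.0922% to 0.142% of oligodendrocyte-like cells. Ifitm3 was found in 91.1%, 79.0%, 93.6% and 67.0% (89.7%, 79.7%, 93.4% and 75.7% without thinning), against 1.57% to 5.16% of oligodendrocyte-like cells.

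Of the 9 genes, a thinned endothelial-like cell held UMIs of 4.30 on average in sham, 1.64 on day 1, 2.63 on day 3 and 1.90 on day 7. At least 3 of the genes were found in 85.8% of cells in sham (84.7 to 86.9), 19.2% on day 1 (18.1 to 20.3), 47.2% on day 3 (45.8 to 48.6) and 28.1% on day 7 (27.1 to 29.2). The tenth of cells with the most UMIs of these genes held 21.4% of them in sham and 31.0%, 24.5% and 29.8% on days 1, 3 and 7. Without Ifitm3 and Bst2, the tenth of cells with the most UMIs of the other 7 held 24.2% in sham and 52.4%, 39.9% and 40.7% on days 1, 3 and 7, and 4.70%, 61.2%, 35.0% and 43.6% of cells had none of the 7. Such a share also rises where UMIs are fewer, and the 7 genes had 19937, 3766, 8380 and 8634 UMIs in these thinned cells. Finding 1 gene in a cell went with finding another only weakly, the mean phi coefficient of a gene with the other 8 running from 0.0161 to 0.120 over genes and libraries. Of endothelial-like cells with an Ifit1 UMI on day 1, 23.7% had an Ifit3 UMI, against 5.16% of those without. In sham the corresponding shares were 51.9% and 37.6%. These are sparse counts and the coefficients are given as a description.

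**Figure D4:**
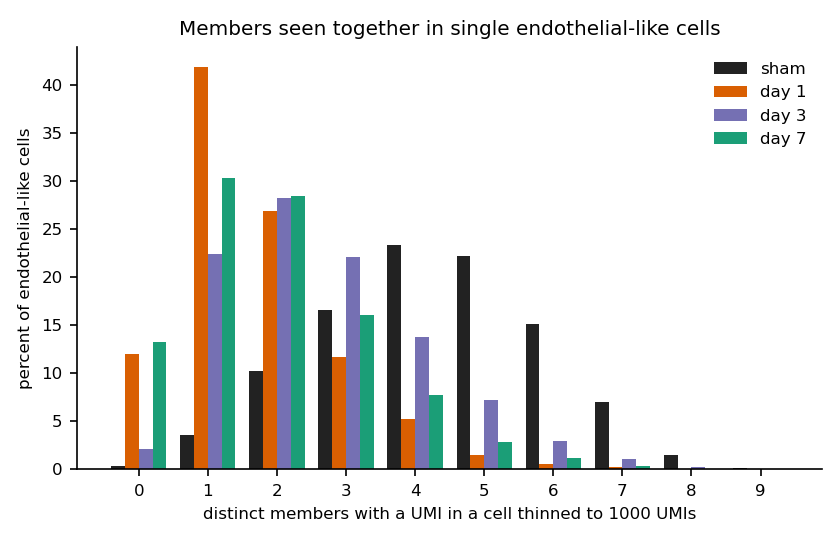
Share of thinned endothelial-like cells (percent) by the number of the 9 genes with at least 1 UMI, 1 bar series per library. Cells with fewer than 1000 UMIs were left out and the rest thinned to 1000. The sham cells average 4.30 genes and the day 1 cells 1.64.

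Outside the vessel wall, the highest levels of Ifi27l2a were in leukocyte classes, which held 102 cells or fewer in each library. Neutrophil-like cells had 14168 CPM in sham (856 UMIs in 15 cells), 475 CPM on day 1 (33 cells), 2284 CPM on day 3 (51 cells) and 3996 CPM on day 7 (21 cells). T or NK-like cells had 2532, 341, 911 and 1259 CPM in 24, 26, 43 and 102 cells. Both had their highest level in sham and their lowest on day 1. Border macrophage-like cells, which live at the surfaces and vessels of the brain, went the other way on day 1, with 2301, 6113, 1938 and 778 CPM in 19, 35, 16 and 13 cells. B-like cells had 4475 CPM in sham, 2628 CPM on day 3 and 1253 CPM on day 7, from 12, 12 and 20 cells. Sets this small were given no ratio, and a few cells decide each level.

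Oligodendrocyte-like cells (750, 2126, 797 and 1129 cells) were, among classes with at least 50 cells in both libraries and 50 CPM in either, the 1 class in which Ifi27l2a was at least 2-fold above sham, with 10.6 CPM in sham, 74.2 CPM on day 1, 30.8 CPM on day 3 and 14.8 CPM on day 7. The day 1 ratio was 6.98 (5.36 to 9.26), and the gene passed the limit only through day 1. Of all genes above the limit in this class, 2.42% were at least 2-fold higher on day 1. After thinning, Ifi27l2a was found in 0.681% (0.222 to 1.58) of these cells in sham and 2.36% (1.76 to 3.10) on day 1, at 4.00% and 5.74% without thinning. A few cells thus carried the level, and 96.6% of thinned day 1 cells held none of the 7 genes other than Ifitm3 and Bst2. The other 8 genes stayed under the limit in this class, with Isg15 at 10.8, 1.83, 2.33 and 1.95 CPM. Choroid plexus-like cells had Ifi27l2a at 673 CPM in sham, 30.2 CPM on day 1 and 614 CPM on day 7, and Bst2 at 1099, 225 and 966 CPM. Day 1 was the low library for both, with ratios of 0.0448 (0.0302 to 0.0650) and 0.205 (0.170 to 0.246), while day 7 lay within counting error of sham. The day 1 cells of this class were the deepest (median 11517 UMIs, against 3027.5 in sham and 2062 on day 7), and the part of depth in the result was not tested.

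Astrocyte-like cells (71, 203 and 81 cells in sham and on days 1 and 3) had Ifit3 at 151, 13.96 and 112 CPM and Isg15 at 93.6, 11.6 and 80.3 CPM. Both were at least 2-fold lower on day 1, when they were under the limit and kept through sham alone, and within counting error of sham on day 3. The share of all genes at least 2-fold lower was not counted in this class, so nothing is read from the 2-fold size. A few cells carried these levels, since 82.5% of thinned cells in sham and 83.5% on day 3 held none of the 7 genes other than Ifitm3 and Bst2, and the tenth of cells with the most held 80.0% and 83.9% of their UMIs. Ifitm3 went the other way in these cells, at 177, 323 and 346 CPM, with ratios of 1.83 (1.25 to 2.75) and 1.96 (1.31 to 2.98). Neuron-like cells had little of any of the 9 genes, with Ifitm3 at 31.0 CPM in sham, 31.9 CPM on day 1 and 88.2 CPM on day 3 from 27 UMIs.

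**Figure D5:**
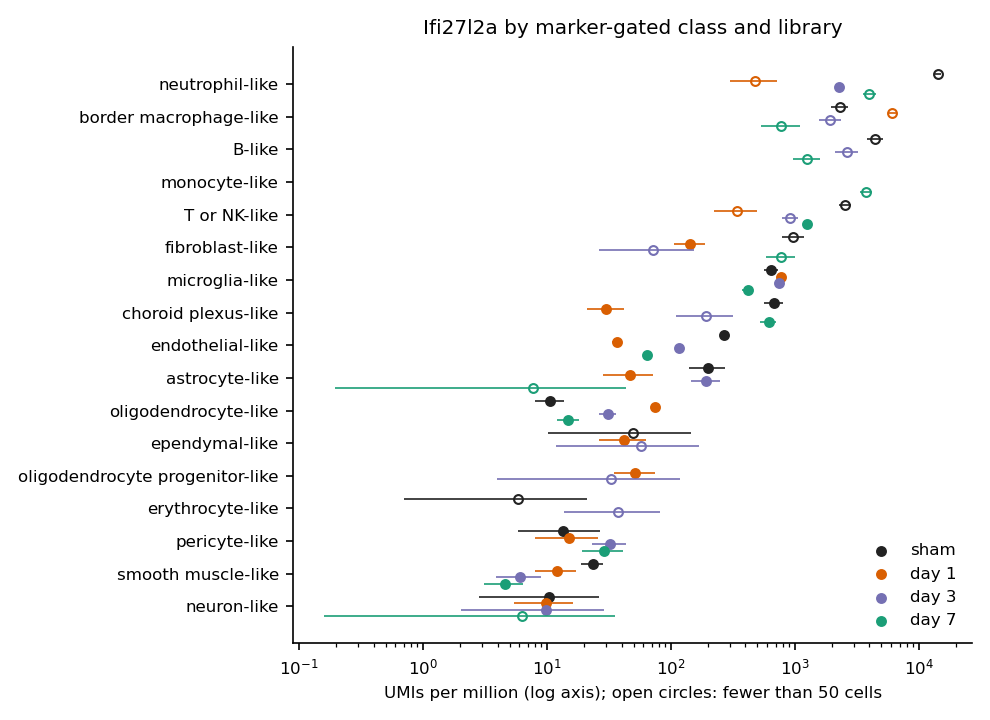
Level of Ifi27l2a (CPM, log axis) by cell class and library, with exact 95% Poisson intervals and open circles for classes with fewer than 50 cells in the library; classes and libraries at 0 UMIs are not drawn. Neutrophil-like cells run from 475 CPM on day 1 to 14168 CPM in sham and microglia-like cells from 418 to 773 CPM.

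Other genes of the pathway were counted over whole lists, with every listed gene included. The counts of lower genes hold some that reached the limit in sham alone, such as Stat2 on day 1, whose low day level is part of how they were kept. Of the interferon genes, Ifnb1 had 3, 12, 17 and 2 UMIs in all kept cells of sham and days 1, 3 and 7, of which 3, 8, 17 and 2 were in microglia-like cells. Ifng had 85, 15, 276 and 214 UMIs, of which 85, 7, 227 and 207 were in T or NK-like cells. Ifnk had 0, 1, 0 and 2 UMIs, and Ifna1, Ifna2, Ifna4, Ifna5, Ifne, Ifnl2 and Ifnl3 had 0 in every library. The receptors Ifnar1, Ifnar2, Ifngr1 and Il10rb were the 4 receptor genes above the limit, and all were within 2-fold of sham in endothelial-like cells on each day, Ifnar1 at 278, 193, 255 and 318 CPM. A list of interferon regulatory factors without Irf7 and Irf9 had 3 genes above the limit in these cells. Of the 3, 0 were at least 2-fold lower or higher on any day, with median log2 ratios of -0.35, 0.13 and -0.23.

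Stat2 and Irf9, which carry the interferon signal to the nucleus, were at least 2-fold below sham in endothelial-like cells on day 1 (167 to 30.4 CPM for Stat2 and 179 to 63.3 CPM for Irf9), and both were within 2-fold of sham on days 3 and 7. The sensors Ddx58, Ifih1 and Zbp1, 3 of 3 above the limit, were lower on day 1, against 3.46% of all genes. Ddx58 (112 to 46.7 CPM) and Ifih1 (107 to 42.3 CPM) passed the limit through sham alone, so their low level is part of how they were kept. Zbp1 alone was lower on day 7, against 1.05%. Usp18, which removes Isg15 from proteins and limits the response, was lower on each day (157, 33.4, 56.1 and 55.8 CPM). On day 1 Usp18 passed the limit through sham alone. Of the other interferon-stimulated genes 22 of 28 were at least 2-fold lower and 1 higher on day 1, 7 lower and 2 higher of 28 on day 3, and 15 lower and 0 higher of 27 on day 7. Of all genes above the limit 3.46%, 1.34% and 1.05% were lower and 1.78%, 2.68% and 1.14% higher on the 3 days. The median log2 ratio of the other interferon-stimulated genes was -1.69, -0.54 and -1.06, against -0.07, -0.01 and 0.05 for all genes. Ifitm1, a neighbour and relative of Ifitm3, was the higher gene on day 1 and, with Ifitm2, on day 3. It stood at 16.7 CPM in sham, 63.7 CPM on day 1, 455 CPM on day 3 and 11.02 CPM on day 7. Ifitm1 passed the limit on days 1 and 3 through those days alone, so its high level there is part of how it was kept.

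Genes linked to interferon gamma were counted in endothelial-like cells as well. Of 10 above the limit on day 1, 10 were at least 2-fold below sham, against 3.46% of all genes, but 6 of the 10 passed through sham alone. Gbp3 (288 to 63.6 CPM) and Gbp7 (301 to 88.2 CPM) were among the 4 that stayed above the limit on day 1. On day 3, 0 of 12 were lower and 3 were higher, Gbp4 (426 CPM, ratio 2.91), Igtp (346 CPM, 2.13) and Cd274 (81.4 CPM, 2.36), against 2.68% of all genes higher. Cd274 was at 34.4 CPM in sham and passed the limit through day 3 alone. On day 7, 4 of 10 were lower, against 1.05% of all genes. The immunoproteasome and peptide transport genes had 3 of 6 lower on day 1 (Psmb8, Psmb9 and Tap1), against 3.46%, and 0 on days 3 and 7. On day 1 Tap1 (103 to 35.5 CPM) passed the limit through sham alone. Of 8 housekeeping genes 0 were lower or higher by 2-fold on any day in endothelial-like cells.

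In pericyte-like cells Stat2 and Irf9 were at least 2-fold below sham on days 1 and 3, and Stat2 was on day 7 as well (84.9 to 32.7 CPM). Stat2 passed the limit on day 7 through sham alone, so its low level on that day is part of how it was kept. In pericyte-like cells 4 of 9 other interferon-stimulated genes were lower on each day, against 2.91%, 1.48% and 1.39% of all genes. In microglia-like cells 12 of 17 other interferon-stimulated genes were lower and 1 higher on day 1, 11 lower and 2 higher of 18 on day 3, and 9 lower and 0 higher of 17 on day 7. The shares over all genes in this class were 17.8%, 4.01% and 3.42% lower and 14.8%, 5.24% and 4.61% higher on the 3 days. Ifitm2 was the higher gene on day 1, with 3 UMIs in sham (7.44 CPM) and 366 UMIs on day 1 (188 CPM), and it was higher on day 3 as well (70.2 CPM), together with Ifi204. Ifitm2 passed the limit through those days alone, so its high level there is part of how it was kept. In the same cells 5 of 8 housekeeping genes were at least 2-fold higher and 1 lower on day 1 (median log2 ratio 1.19), 2 were higher on day 3 and 0 were past 2-fold on day 7, and the part of this shift in the microglia-like results was not tested. In pericyte-like cells 1 housekeeping gene, Tubb5, was higher on day 1.

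The profile of the 9 genes over classes was compared with that of 13493 genes across the 34 pairs of class and library with at least 50 cells, using the mean of their centred log2(CPM + 10) values. The 9 most similar genes were Ddx58 (Pearson r = 0.909), Irf9 (0.904), Tapbp (0.902), Tap1 (0.891), Tap2 (0.890), Dtx3l (0.884), Trim34a (0.883), Ifih1 (0.883) and Gbp7 (0.882). Of these, 8 were on the pathway lists and Trim34a was on none. The 9 genes themselves correlated with their mean from 0.931 (Irf7) down to 0.703 (Bst2) and 0.564 (Ifi27l2a), the last at rank 560 of all genes. Each of the 9 is part of that mean, which raises its value, so these are not comparable with the values of the other genes. Among pairs of the 9, Ifit1 and Ifit3 were the most alike (0.883) and Ifitm3 and Ifi27l2a the least (0.156). The pairs share libraries and 13 classes and are not independent, so the correlations are given as a description.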

How the data were processed

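Droplet single-cell libraries were analysed from the count matrices that the authors deposited, which hold whole-number UMI counts per gene and barcode. The labels name Cell Ranger 3.0.1, Seurat 4.1.2 and the human build GRCh38, whereas the matrix headers give Cell Ranger 4.0.0 and the gene identifiers are mouse, so the build of the reads is not given in the sources used here. The study states how many cells it kept, and its stated filter does not leave those numbers in these matrices. The filter retained cells in which between 200 and 3000 genes were detected and mitochondrial transcripts made up no more than 10% of UMIs. A cell was given a class where at least 3 distinct markers of 1 of 18 classes were found, and at least 2 times as many as of the next class. The classes therefore rest on rebuilt names and can differ from those of the study.

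UMIs were summed per class and library and divided by the summed total. Intervals at 95% are exact Poisson for levels, exact conditional for ratios and exact binomial (Clopper-Pearson) for shares of cells, and they cover counting error only. Depth was 69392755 to 104023002 UMIs per library. With 1 library per group no test was made. Ratios needed 50 cells in both libraries, and a gene was counted as lower or higher only with 50 CPM in either. The counting of genes past the fold was tested on simulated data. Clusters came from 2000 variable genes, 30 principal components, 20 neighbours and Leiden resolution 1. Scrublet's automatic threshold marked 0.0142% to 4.61% of cells per library and did not work in 3 of the 4, so no doublets were removed, and an alternative left out the 8% of highest scores. The 9 genes, the gene lists and the markers were chosen with earlier results of these data known. Other genes are named from the lists where they reached 50 CPM in a library of the class described, or as the 10 most alike in profile. A gene that this rule would name is not reported here. Interferon genes below that are given as UMIs, and Gm42418 was named after its values were seen. Alternatives varied the filters, the gate, the thinning, the total, the limit and the fold, and 1 was added after the data were seen. Analyses used Python 3.11.15, numpy 2.4.6, pandas 2.3.3, scipy 1.17.1, scanpy 1.11.5, leidenalg 0.10.2 and matplotlib 3.10.9. The promoter windows are RefSeq's.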

Additional observations from a re-analysis of the deposited data

Results flagged for a closer look

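In oligodendrocyte-like cells Ifi27l2a had a day 1 level 6.98 times that of sham, while its day 1 level was below sham in endothelial-like, astrocyte-like and choroid plexus-like cells (ratios 0.135, 0.235 and 0.0448). The opposite directions drew attention to it, and the difference between classes was not tested. A few cells carried the oligodendrocyte-like level, since 96.6% of thinned day 1 cells held none of the 7 genes other than Ifitm3 and Bst2. In neuron-like cells Ifitm3 had a day 3 level 2.84 times that of sham (95% interval 1.39 to 6.16, counting error only), while in pericyte-like cells its day 3 ratio was 0.453. That difference was not tested either, and the neuron-like level on day 3 rests on 80 cells. The neuron-like Ifitm3 level was set beside the one these cells would have at the endothelial-like proportion of the gene to endothelial markers. It was at 1.07 times in sham, 2.15 times on day 1 and 4.13 times on day 3. The part of endothelial RNA in these levels was not tested. Of thinned neuron-like cells, 79 of 89 in sham and 71 of 79 on day 3 held none of the interferon-stimulated genes described here.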

How the results depend on the processing

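The number of the 9 genes at least 2-fold below sham was recomputed in 4 classes with the filters, gate, depth, total, limit and fold varied in turn. In endothelial-like cells it stayed within 1.5 times in 38 of 39 comparisons, the exception being a fold of 3 on day 3, with 3 genes. In pericyte-like cells it was 3, 4 and 4 on days 1, 3 and 7 with a limit of 200 CPM, and 5 and 5 on days 3 and 7 with a fold of 3. In smooth muscle-like cells it was 3, 3 and 4 on days 1, 3 and 7 with at most 5% mitochondrial UMIs, 1, 4 and 3 with a limit of 10 CPM, 1 on day 3 with no upper limit on genes, 1 and 1 on days 3 and 7 when ratios were centred on the median gene, and 1 and 2 with a fold of 1.5. In microglia-like cells it was 0, 0 and 0 with a limit of 200 CPM, 6 and 6 on days 3 and 7 with classes taken from clusters, 6 and 6 with a fold of 1.5, 1 and 1 with a fold of 3, 6 on day 7 with no upper limit on genes and 1 on day 7 with cells thinned to 1000 UMIs. The summed ratio of smooth muscle-like cells on day 1 turned from 1.23 to 0.747 with at most 5% mitochondrial UMIs. Except where the limit or fold itself changed what was counted, the cause was not tested. The added alternative, weighting endothelial-like clusters equally, gave 9, 6 and 9 genes and summed ratios of 0.271, 0.604 and 0.298. No paired analysis was possible because each group has 1 library.

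With 1 library per group, animals, surgery, dissociation and day cannot be told apart, and depth limits genes with few UMIs, such as Ifit1 in microglia-like cells at 3 to 13 UMIs.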
